A study of Mus musculus with 17 samples.

Results

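The genes described here are Atf4 and its established targets of the integrated stress response, 35 mouse genes chosen by name. The rule itself used no measured value, but the list was chosen with earlier results of these data known. All 35 were found by symbol among the 55416 genes counted. They encode transcription factors and co-regulators (8 genes) and regulators of stress feedback and growth (6 genes). The others encode enzymes of amino acid synthesis and transamination together with a tRNA exporter (12 genes), mitochondrial one-carbon enzymes (4 genes), and secreted or cell surface proteins (5 genes).

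The integrated stress response starts with kinases that sense a shortage of amino acids or haem, double-stranded RNA, or unfolded protein in the endoplasmic reticulum (ER). They phosphorylate the initiation factor eIF2 alpha, which lowers general translation and lets ribosomes pass the upstream reading frames of the Atf4 mRNA, so that more ATF4 protein is made. ATF4 pairs with C/EBP and related bZIP proteins at C/EBP-ATF response elements and raises genes for serine, glycine, proline and asparagine synthesis, for amino acid uptake and for tRNA charging. Because ATF4 is controlled largely in translation, the level of its mRNA need not follow the level of its protein, which was not analysed here.

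RNA was measured by poly(A)-selected sequencing in E14Tg2a.4 mouse embryonic stem cells grown with serum and leukemia inhibitory factor, a line whose Rpl31, a protein of the large ribosomal subunit, is fused to a FLAG-TEV-AviTag. ALIBi, a proximity biotinylation system, marked tagged ribosomes at the ER, and the marked ribosomes were purified with their mRNA. Replicates are labelled as biological replicates. RNA from the same lysates, taken before purification, gave the whole-cell libraries. The 17 libraries form 6 groups, namely Gnl3 siRNA on ER ribosomes (n = 3) and in whole-cell RNA (n = 3), Nmd3 siRNA on ER ribosomes (n = 3) and in whole-cell RNA (n = 3), and scramble siRNA on ER ribosomes (n = 2, replicates 2 and 3) and in whole-cell RNA (n = 3). Gnl3, or nucleostemin, is a nucleolar GTP-binding protein, and Nmd3 is the export adapter of the large ribosomal subunit. Every group, scramble included, comes from the 1 tagged line and carries the tag and the ER-directed ALIBi system.

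Libraries held 15198736 to 29904256 gene counts, and levels are given in counts-per-million (CPM) of the gene counts of the same library. After Gnl3 siRNA, Gnl3 was at 26.9 to 31.6 CPM on ER ribosomes, against 170.0 and 177 CPM after scramble siRNA. After Nmd3 siRNA, Nmd3 was at 24.1 to 25.2 CPM, against 120.0 and 124 CPM. Gnl3 was at 263 CPM in Nmd3 siRNA replicate 2 on ER ribosomes, and at 164 and 179.8 CPM in replicates 1 and 3. The stem cell markers Pou5f1, Sox2 and Nanog were at 316 CPM or more in every library. The fibroblast genes Postn, Prrx1 and Lum had no count in 15 of the 17. Other fibroblast genes were counted in every library, with Col1a1 at 1.053 to 6.68 CPM and Twist1 at 2.546 to 7.24 CPM. Col1a2, Col3a1 and Dcn had at most 1.033, 0.3514 and 0.2143 CPM. A pair of whole-cell libraries stood apart, Gnl3 siRNA replicate 3 and Nmd3 siRNA replicate 2. Their log2 values correlated with the other 7 whole-cell libraries at no more than 0.952 and 0.936, while each of those 7 correlated with at least 1 other at 0.994 or above. Mitochondrially encoded genes held 6.14% and 0.769% of their counts, against 1.15% to 2.03% in the other 7. The biological coefficient of variation of the whole-cell fit was 0.316 with both and 0.059 without them. Calls in whole-cell RNA are therefore given with and without both, while knockdown fold changes in whole-cell RNA are given without both only. The ER fit had a coefficient of 0.065. Among the ER libraries, Nmd3 siRNA replicate 2, from the lysate of one of the pair, correlated with no other ER library above 0.994, while each of the other 7 reached 0.996 or 0.997. It held Mars1, a cytosolic tRNA synthetase gene, at 150.1 CPM, against 45.5 to 58.2 CPM in the other 7, and Rars1 at 165 CPM, against 77.1 to 94.8 CPM. Without it, calls over all genes between Nmd3 and Gnl3 siRNA on ER ribosomes were 703 in place of 387. Between Nmd3 and scramble siRNA they were 366 in place of 206. Calls of the listed genes after Nmd3 siRNA on ER ribosomes are therefore also given without it. Unless stated, all other values after Nmd3 siRNA on ER ribosomes keep it, including medians, other gene lists and ratios to whole-cell RNA.

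ATF4 acts at a composite C/EBP-ATF element. The letters TGATGNAA, on either strand, were searched in RefSeq promoters (build GRCm38.p6) from 250 bases before to 50 bases after the start site. Of the 35 genes, 32 were in the promoter table, and 11 of these 32 held the letters (34.4%), against 4.51% of all gene symbols in the table. The genes were chosen as established ATF4 targets, so the higher share may follow from that choice and is no result of the RNA data. The 6 stretches of 50 bases printed here are from genes that changed after a knockdown on ER ribosomes, and they show the element, in capitals, that these genes share. Each stretch reads 5′ to 3′ on the strand of its gene.
Chac1 (chr2:119351028-119351077, + strand): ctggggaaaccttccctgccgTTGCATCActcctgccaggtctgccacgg
Nupr1 (chr7:126625552-126625601, - strand): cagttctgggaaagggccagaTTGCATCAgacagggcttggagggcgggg
Jdp2 (chr12:85599362-85599411, + strand): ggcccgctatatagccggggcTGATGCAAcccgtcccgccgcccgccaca
Pycr1 (chr11:120643823-120643872, - strand): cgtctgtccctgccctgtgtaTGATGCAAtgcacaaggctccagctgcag
Pck2 (chr14:55540142-55540191, + strand): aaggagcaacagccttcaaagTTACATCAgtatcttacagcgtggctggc
Asns (chr6:7693204-7693253, - strand): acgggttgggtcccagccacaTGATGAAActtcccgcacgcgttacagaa
Chac1 and Nupr1 held the element as TTGCATCA, which is TGATGCAA on the other strand, and Jdp2 and Pycr1 held TGATGCAA itself. Pck2 held TTACATCA and Asns held TGATGAAA. The element was 193 bases before the start in Chac1, 110 in Nupr1, 103 in Pycr1 and Pck2, 33 in Jdp2 and 23 in Asns, counted at its first base. The other genes with these letters were Atf3, Trib3, Fgf21, Vldlr and Got1. Of the 11 genes that were lower after Gnl3 siRNA on ER ribosomes, 5 held the letters, and of the other 21 genes 6 did. A match describes letters and not binding.

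Levels differed widely between the genes. As CPM per kilobase of exon (RPKM, exon lengths of GENCODE M21), the scramble whole-cell libraries had Atf4 at 126 ± 5.24 and Psat1 at 125 ± 3.64 (SD, n = 3), and these 2 ranges overlapped. Asns followed at 103 ± 4.8, Got1 at 85.3 ± 1.43 and Shmt2 at 78.5 ± 0.91 RPKM, each apart from the gene above it. At the low end stood Atf3 at 2.8 ± 0.104, Aldh1l2 at 0.782 ± 0.0476, Vldlr at 0.615 ± 0.0945 and Fgf21 at 0.23 ± 0.0958 RPKM. Fgf21, a secreted stress hormone, had at most 0.658 CPM in any library and passed the filter on low counts in neither fraction's own fit, so that knockdowns were tested on 34 of the 35 genes and no fold change is given for it.

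**Figure D1:**
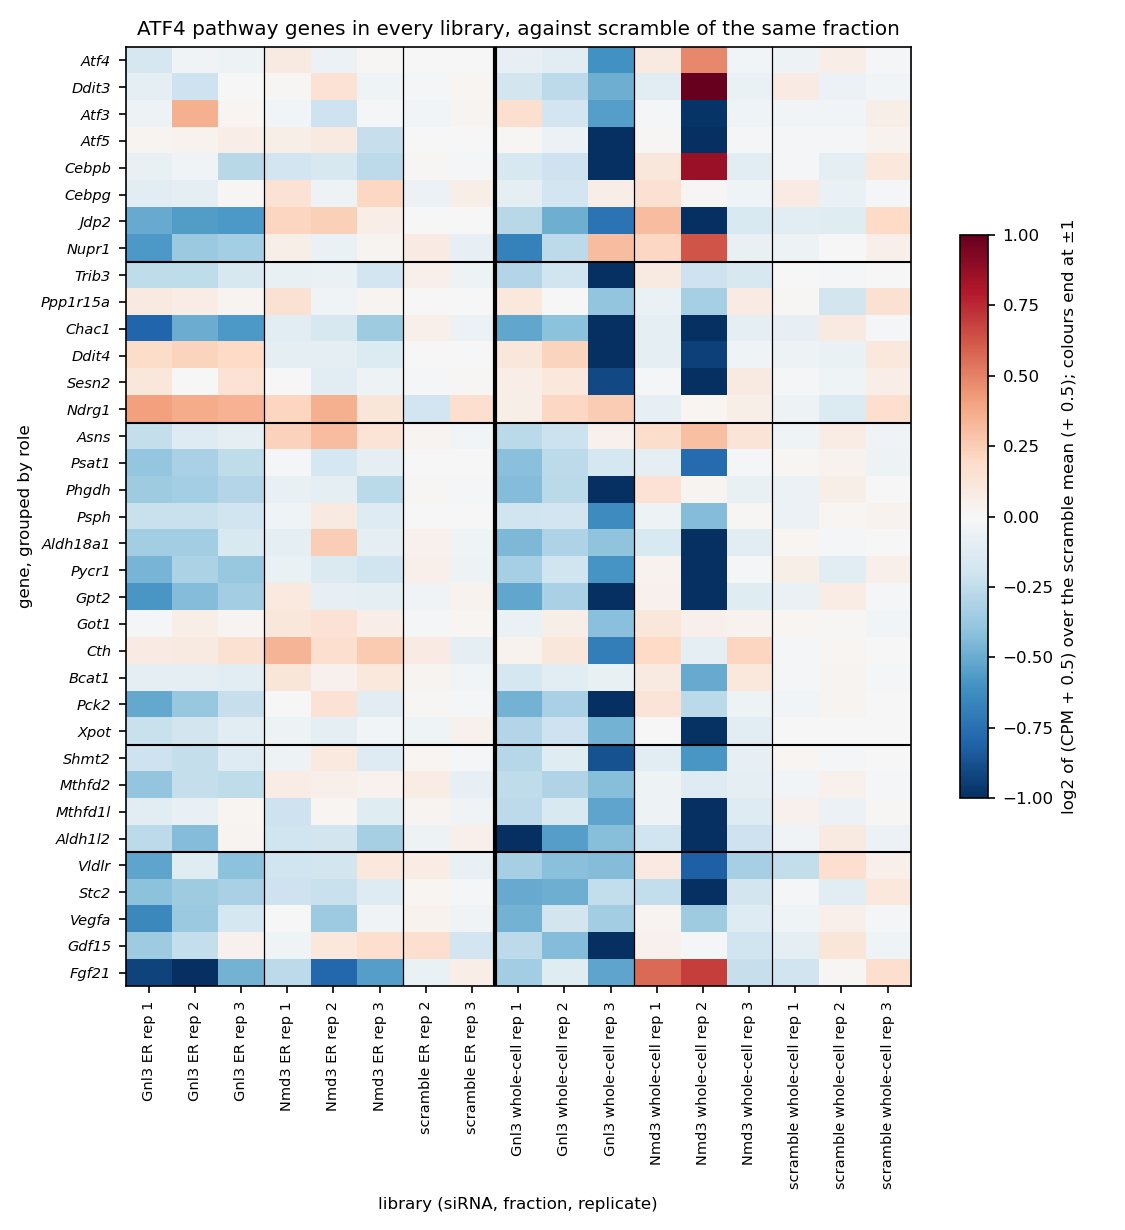
Level of each of the 35 genes (rows, grouped by role) in each of the 17 libraries (columns), as log2 of CPM plus 0.5 over the scramble mean of the same fraction plus 0.5, with colours ending at ±1. Chac1 and Jdp2 are below scramble in all 3 Gnl3 siRNA libraries on ER ribosomes, and the whole-cell libraries of Gnl3 siRNA replicate 3 and Nmd3 siRNA replicate 2 lie below the other 7 in 25 and 20 of the 35 rows.

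On ER ribosomes after Gnl3 siRNA, of the 34 genes tested, 11 fell and 1 rose at an adjusted p under 0.05, while 2.68% of all 17632 genes tested were called (1.17% lower and 1.51% higher). The genes that fell were Chac1, Jdp2, Gpt2, Nupr1, Pycr1, Pck2, Stc2, Phgdh, Psat1, Mthfd2 and Xpot, and the gene that rose was Ddit4. The median log2 fold change was -0.20 over the 34 genes, with 26 of them below 0, and -0.002 over all genes. Folds are Gnl3 over scramble siRNA, and tests are edgeR quasi-likelihood tests with Benjamini-Hochberg adjustment over all genes. In bulk RNA, less mRNA per cell and fewer cells that make it cannot be told apart.

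The calls depended on the small number of libraries. Without scramble replicate 2, 3 of the 34 genes were called (Chac1, Psat1 and Gpt2, all lower). Without Gnl3 siRNA replicate 1, 7 were called. Jdp2, Xpot and Ddit4 were lost with any 1 of the 5 libraries left out. Of the 11 genes that fell, 10 had their lowest value in Gnl3 siRNA replicate 1. Markers of pluripotent stem cells moved in the same libraries: 4 of 10 fell, namely Nanog by 0.25, Dppa5a by 0.21, Esrrb by 0.20 and Zfp42 by 0.17 on the log2 scale. The summed level of the 10 markers was 8820 to 9210 CPM after Gnl3 siRNA and 9590 to 9850 CPM after scramble siRNA, with none at 0 in any library. None of 5 primitive endoderm markers tested and neither of 2 fibroblast markers tested was called by edgeR or DESeq2, with 0 and 1 at an unadjusted p under 0.05. Their summed levels were 10.8 to 11.5 and 12.1 to 13.3 CPM after Gnl3 siRNA, against 9.93 to 10.3 and 9.62 to 10.6 CPM after scramble siRNA. The part of these cell markers in the result was not tested.

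Of the 8 transcription factors and co-regulators, 2 fell. Atf4, the regulator itself, had 312, 342 and 339 CPM after Gnl3 siRNA, 374, 336 and 354 CPM after Nmd3 siRNA, and 351 and 351 CPM after scramble siRNA. All 3 Gnl3 siRNA libraries were below both scramble libraries, but the log2 fold change was -0.09 (SE 0.048, adjusted p = 0.376) and was not called. Ddit3, which encodes the stress factor CHOP, had 28.3, 26.1 and 30.0 CPM after Gnl3 siRNA, 30.5, 33.4 and 29.3 CPM after Nmd3 siRNA, and 29.7 and 30.6 CPM after scramble siRNA. Atf3, a repressor and activator induced by many stresses, had 6.83, 9.23 and 7.22 CPM after Gnl3 siRNA, 6.97, 6.10 and 7.04 CPM after Nmd3 siRNA, and 6.96 and 7.24 CPM after scramble siRNA. For both, the Gnl3 siRNA and scramble ranges overlapped.

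Jdp2, a bZIP repressor that pairs with Jun proteins, had 4.34, 4.15 and 4.10 CPM after Gnl3 siRNA, 7.45, 7.57 and 6.68 CPM after Nmd3 siRNA, and 6.37 and 6.35 CPM after scramble siRNA. Nupr1, a small stress-induced chromatin protein, had 25.9, 30.0 and 30.6 CPM after Gnl3 siRNA, 40.6, 37.0 and 39.7 CPM after Nmd3 siRNA, and 41.1 and 36.6 CPM after scramble siRNA. For both genes the 3 Gnl3 siRNA libraries lay below all other ER libraries. The log2 fold changes were -0.61 (SE 0.16, adjusted p = 0.0416) for Jdp2 and -0.44 (SE 0.085, adjusted p = 0.00272) for Nupr1. Atf5, Cebpb and Cebpg, bZIP factors that act with or beside ATF4, had log2 fold changes of 0.03, -0.13 and -0.08 and were not called.

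Among the regulators of stress feedback and growth, Chac1 fell. CHAC1 degrades glutathione and is a widely used readout of ATF4 activity. Its mRNA had 28.9, 35.6 and 33.7 CPM after Gnl3 siRNA, 46.5, 44.9 and 39.3 CPM after Nmd3 siRNA, and 52.3 and 48.4 CPM after scramble siRNA. The 3 Gnl3 siRNA libraries were the lowest of the 8, with a log2 fold change of -0.63 (SE 0.089, adjusted p = 0.000168). Trib3, a pseudokinase that restrains ATF4 and CHOP, had 54.0, 53.9 and 57.7 CPM after Gnl3 siRNA, 61.3, 61.5 and 56.5 CPM after Nmd3 siRNA, and 66.9 and 62.1 CPM after scramble siRNA. Its Gnl3 siRNA libraries were also below scramble, but the fold change of -0.24 (SE 0.069, adjusted p = 0.0611) was not called.

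Ddit4 went the other way. It encodes REDD1, an inhibitor of mTORC1 that p53 also induces, and had 173, 178 and 175 CPM after Gnl3 siRNA, 143, 143 and 138 CPM after Nmd3 siRNA, and 153 and 152 CPM after scramble siRNA. The 3 Gnl3 siRNA libraries were the highest of the 8, with a log2 fold change of 0.19 (SE 0.05, adjusted p = 0.0326). The call was lost with the replicate block (adjusted p = 0.0856), was at an adjusted p of 0.0847 to 0.309 with 1 library left out, and was kept in 3 of 11 alternatives. Sesn2, a leucine sensor and mTORC1 inhibitor that p53 also induces, was at 0.08. Ppp1r15a, the eIF2 alpha phosphatase subunit GADD34, was at 0.05, and Ndrg1, a differentiation and hypoxia gene, at 0.38. None of these last 3 was called.

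The amino acid genes held 6 of the 11 that fell, among 12 tested. Phgdh and Psat1 catalyse the first steps of serine synthesis from glycolysis. Phgdh had 134, 135 and 139.8 CPM after Gnl3 siRNA, 163, 161 and 142 CPM after Nmd3 siRNA, and 173 and 169.7 CPM after scramble siRNA. Psat1 had 373, 389.9 and 410.4 CPM after Gnl3 siRNA, 485, 433 and 457 CPM after Nmd3 siRNA, and 490.4 and 488 CPM after scramble siRNA. In both, the Gnl3 siRNA libraries lay below every Nmd3 siRNA and scramble library. The log2 fold changes were -0.34 (SE 0.058, adjusted p = 0.000779) for Phgdh and -0.33 (SE 0.046, adjusted p = 5.68e-05) for Psat1. Psph, the last enzyme of the same pathway, was at -0.23 (SE 0.065, adjusted p = 0.0575) and was not called.

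Pycr1, which makes proline in mitochondria, had 30.5, 33.9 and 32.5 CPM after Gnl3 siRNA, 40.4, 38.2 and 36.8 CPM after Nmd3 siRNA, and 43.9 and 40.8 CPM after scramble siRNA. Gpt2, the mitochondrial alanine aminotransferase, had 48.0, 53.1 and 56.4 CPM after Gnl3 siRNA, 77.0, 67.9 and 67.7 CPM after Nmd3 siRNA, and 69.9 and 73.8 CPM after scramble siRNA. Pck2, the mitochondrial phosphoenolpyruvate carboxykinase, had 45.8, 50.4 and 55.9 CPM after Gnl3 siRNA, 65.8, 72.4 and 60.4 CPM after Nmd3 siRNA, and 66.0 and 65.0 CPM after scramble siRNA. Each of these mitochondrial enzymes was lower in the 3 Gnl3 siRNA libraries than in any other ER library. The log2 fold changes were -0.40 (SE 0.078, adjusted p = 0.00326) for Pycr1, -0.47 (SE 0.072, adjusted p = 0.000261) for Gpt2 and -0.38 (SE 0.085, adjusted p = 0.0171) for Pck2.

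Xpot exports tRNAs from the nucleus and had 179, 184 and 193 CPM after Gnl3 siRNA, 201, 196 and 204 CPM after Nmd3 siRNA, and 202 and 215 CPM after scramble siRNA. Its log2 fold change was -0.18 (SE 0.049, adjusted p = 0.0387), the smallest among the genes that fell. Asns, asparagine synthetase, had 179, 194 and 199 CPM after Gnl3 siRNA, 249, 263 and 233 CPM after Nmd3 siRNA, and 217 and 208 CPM after scramble siRNA. All 3 Gnl3 siRNA libraries were below scramble, but its fold change of -0.16 (SE 0.057, adjusted p = 0.146) was not called. Aldh18a1, the first enzyme of proline synthesis, was at -0.30, and Bcat1, the cytosolic branched-chain aminotransferase, at -0.11. Got1, the cytosolic aspartate aminotransferase, was at 0.02, and Cth, which makes cysteine from cystathionine, at 0.10. None of these last 4 was called.

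Of the 4 mitochondrial one-carbon enzymes, Mthfd2 fell. It oxidises methylene-tetrahydrofolate and had 62.0, 69.1 and 68.6 CPM after Gnl3 siRNA, 86.2, 84.5 and 83.8 CPM after Nmd3 siRNA, and 86.2 and 77.1 CPM after scramble siRNA. Its log2 fold change was -0.31 (SE 0.066, adjusted p = 0.00781). Shmt2, which splits serine into glycine and a one-carbon unit, was at -0.20 (SE 0.062, adjusted p = 0.0972). Mthfd1l was at -0.07 and Aldh1l2 at -0.29, and these 3 were not called.

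Among the secreted and cell surface proteins, Stc2 fell. Stanniocalcin 2 is a glycoprotein hormone made during ER stress, and its mRNA had 44.8, 46.5 and 47.5 CPM after Gnl3 siRNA, 51.5, 51.1 and 54.5 CPM after Nmd3 siRNA, and 60.3 and 59.0 CPM after scramble siRNA. The log2 fold change was -0.38 (SE 0.066, adjusted p = 0.00102). Vegfa, the angiogenic growth factor, was at -0.41 (SE 0.12), Vldlr, a lipoprotein receptor, at -0.37 (SE 0.18) and Gdf15, a stress cytokine, at -0.21 (SE 0.15). All 4 of the genes tested in this group had fold changes below 0, and 1 was called.

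**Figure D2:**
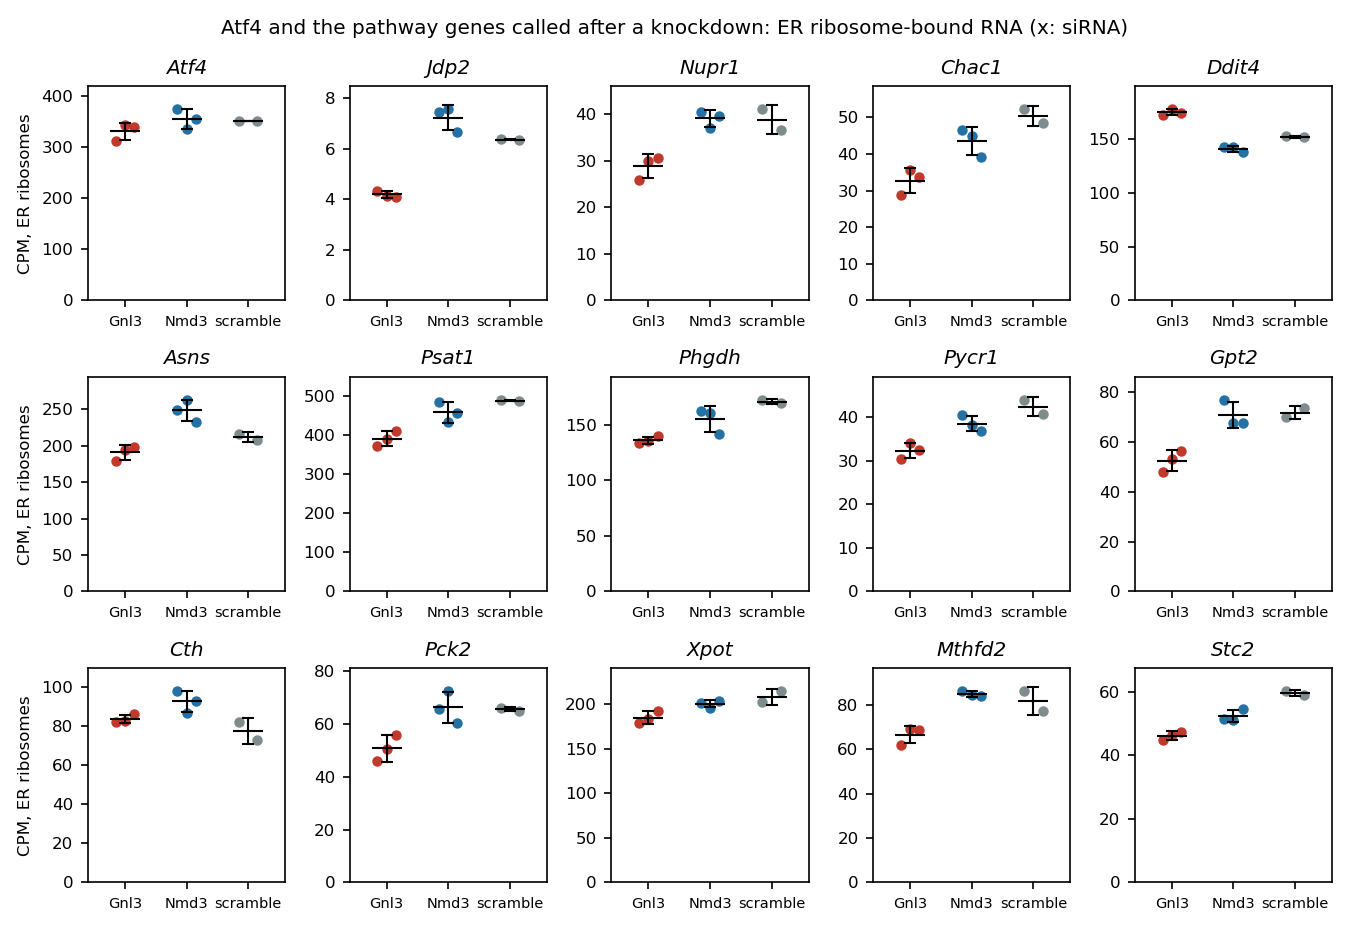
Level on ER ribosomes, in CPM, of Atf4 and the 14 genes called after Gnl3 or Nmd3 siRNA, for each library (points) with the mean and SD (bars) of the Gnl3 siRNA (n = 3), Nmd3 siRNA (n = 3) and scramble siRNA (n = 2) groups. In 11 panels the Gnl3 siRNA points lie below scramble by an amount that was called, in the Ddit4 panel they lie above it, and in the Asns and Cth panels the Nmd3 siRNA points lie above scramble.

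Other genes of the pathway were read from separate lists. None of 18 eIF2 alpha kinases, eIF2 and eIF2B subunits and related regulators was called on ER ribosomes after Gnl3 siRNA by edgeR or DESeq2, and none had an unadjusted p under 0.05. Of 13 amino acid transporters, the arginine and lysine carrier Slc7a1 fell, by 0.37 on the log2 scale. Of 20 cytosolic aminoacyl-tRNA synthetases, 3 fell, namely Nars1 by 0.22, Cars1 by 0.19 and Gars1 by 0.17. Of 18 other genes linked to ATF4, 3 fell and 2 rose. The growth factor Fgf15 fell by 0.67, the membrane-bound factor Creb3l1 by 0.30 and the translation repressor Eif4ebp1 by 0.16. The p53 target Bbc3 rose by 0.36 and the autophagy receptor Sqstm1 by 0.21.

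Of 14 other serine, glycine and folate enzymes tested, the cytosolic Mthfd1 rose, with a log2 fold change of 0.38 (SE 0.056, adjusted p = 0.000249), while its mitochondrial relative Mthfd2 fell. None of 18 ATF6 and XBP1 targets of the unfolded protein response was called by edgeR or DESeq2, with a median of 0.02 and 1 at an unadjusted p under 0.05. Among 19 p53 targets, 8 rose and 1 fell. Perp rose by 0.75, Plk2 by 0.60 and Btg2 by 0.59, and Tigar fell by 0.30 on the log2 scale.

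After Nmd3 siRNA fewer of the genes were called on ER ribosomes than after Gnl3 siRNA. Asns and Cth rose and none fell, 2 of 34 tested, against 1.17% of all genes called (0.652% higher). At an unadjusted p under 0.05 edgeR had 9 of the 34 genes, beside 11.6% of all genes. In the per-library values already given, all 3 Nmd3 siRNA libraries had more Asns than either scramble library, with a log2 fold change of 0.24 (SE 0.058, adjusted p = 0.0418). Cth had 82.1, 82.7 and 86.0 CPM after Gnl3 siRNA, 97.9, 86.9 and 92.8 CPM after Nmd3 siRNA, and 82.2 and 72.7 CPM after scramble siRNA. Its 3 Nmd3 siRNA values were the highest of the 8, with a log2 fold change of 0.26 (SE 0.064, adjusted p = 0.0397). Neither Asns nor Cth was called without scramble replicate 2, without scramble replicate 3 or without Nmd3 siRNA replicate 1, while Asns alone was called without Nmd3 siRNA replicate 3. With the replicate block Asns was called (adjusted p = 0.0447) and Cth was not (adjusted p = 0.127). Without Nmd3 siRNA replicate 2 both were called, Asns at 0.18 and Cth at 0.30.

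Over the 34 genes the median log2 fold change after Nmd3 siRNA was -0.01, and 15 were above 0. Atf4 was at 0.02 (SE 0.048), Ddit3 at 0.05 (SE 0.089), Atf3 at -0.08 (SE 0.16) and Trib3 at -0.10 (SE 0.069). Chac1, at -0.20 (SE 0.089), and Stc2, at -0.18 (SE 0.066), were below scramble in all 3 libraries but were not called. The same held for Trib3, Psat1, Phgdh, Pycr1, Ddit4, Cebpb and Aldh1l2. In the other direction, Bcat1, Got1 and Jdp2 were above scramble in all 3 libraries and not called, beside Asns and Cth. How many of all genes lay apart from scramble in this way was not counted. Such separation therefore cannot be read as particular to the listed genes. Among the 18 eIF2 alpha kinases and related regulators, Impact fell, with a log2 fold change of -0.55 (SE 0.048, adjusted p = 9.18e-08). IMPACT competes with the kinase GCN2 for its activator GCN1. Impact also fell in whole-cell RNA without both libraries that stand apart, with a log2 fold change of -0.38 (SE 0.055, adjusted p = 0.000512). Of the folate enzymes Mthfd1 rose by 0.39, and of 19 p53 targets Perp rose by 0.30. No amino acid transporter, tRNA synthetase, other ATF4-linked gene or unfolded protein response gene was called after Nmd3 siRNA on ER ribosomes by edgeR or DESeq2. At an unadjusted p under 0.05 edgeR had 0 of 13 transporters, 1 of 20 synthetases, 2 of 18 other ATF4-linked genes and 6 of 18 unfolded protein response genes.

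**Figure D3:**
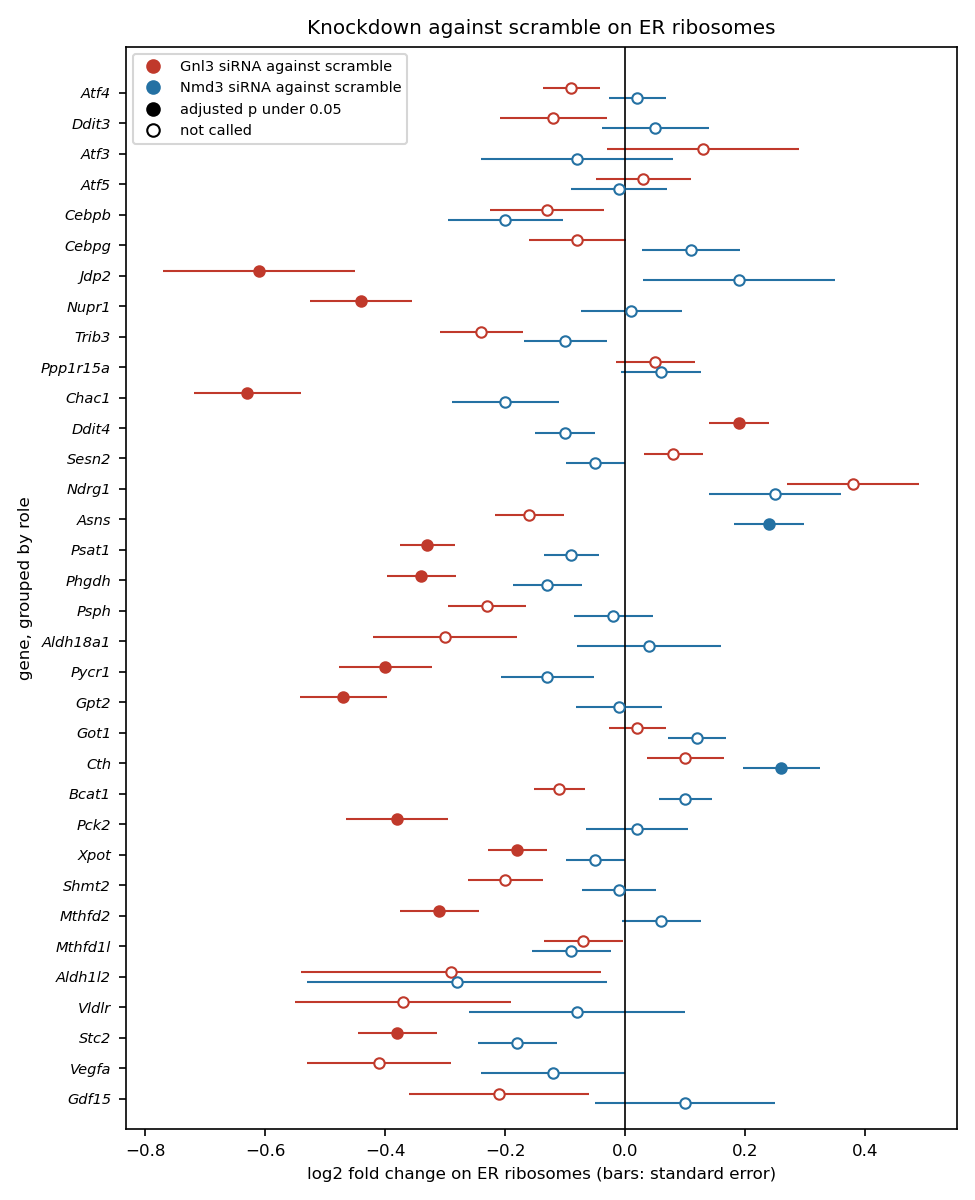
Log2 fold change on ER ribosomes of the 34 genes tested, for Gnl3 siRNA (red) and Nmd3 siRNA (blue) against scramble siRNA, with standard errors, filled where the adjusted p was under 0.05. The red points run from -0.63 for Chac1 to 0.38 for Ndrg1, and 2 blue points, Asns and Cth, are filled.

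The 2 knockdowns share their scramble libraries, so their difference was tested directly. On ER ribosomes 11 of the 34 genes were higher and 1 was lower after Nmd3 siRNA than after Gnl3 siRNA, against 2.19% of all genes called (0.987% higher and 1.21% lower). The higher genes were Jdp2, Nupr1, Gpt2, Chac1, Pck2, Asns, Mthfd2, Pycr1, Psat1, Phgdh and Bcat1, and the lower one was Ddit4. The log2 differences, Nmd3 over Gnl3 siRNA, were 0.80 (SE 0.15, adjusted p = 0.00161) for Jdp2 and 0.46 (SE 0.076, adjusted p = 0.000665) for Nupr1. They were 0.40 (SE 0.051, adjusted p = 6.08e-05) for Asns, 0.45 (SE 0.065, adjusted p = 0.000129) for Gpt2 and -0.29 (SE 0.044, adjusted p = 0.000243) for Ddit4. The other genes that were higher lay between 0.21 and 0.43. Asns, which was called against scramble after Nmd3 siRNA alone, thus differed between the knockdowns with its ranges apart. Without Nmd3 siRNA replicate 2, 18 genes were called between the knockdowns. Calls over all genes rose in this setting as well, as given above, so the rise is not particular to these genes.

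Of the genes outside the 35, 6 of 20 tRNA synthetases were higher after Nmd3 than after Gnl3 siRNA on ER ribosomes, led by Cars1 at 0.22 and Nars1 at 0.21. Values here include Nmd3 siRNA replicate 2, which held more Mars1 and Rars1 than the other ER libraries. The transporters Slc7a1, at 0.33, and Slc7a5, at 0.19, were higher as well. Some but not all stem cell markers were also higher in this contrast, with Nanog at 0.34, Tfcp2l1 at 0.19 and Esrrb at 0.18. For the markers Sox2 and Fgf4, the CPM ranges of the Nmd3 and Gnl3 siRNA libraries on ER ribosomes overlapped. Of 19 p53 targets 14 were lower after Nmd3 siRNA, led by Polk at -0.49, Btg2 at -0.45 and Perp at -0.45. The part of these genes in the result was not tested.

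In whole-cell RNA with all 9 libraries, none of the 34 genes was called after either knockdown or between them, and neither was any other gene (0% of 17310). At an unadjusted p under 0.05, edgeR had 2 of the 34 genes for Gnl3 siRNA, 0 for Nmd3 siRNA and 4 for Nmd3 against Gnl3 siRNA, beside 1.15%, 2.27% and 6.63% of all genes. DESeq2 also called none of the genes in the 3 comparisons. In the library of Gnl3 siRNA replicate 3, 25 of the 35 genes were below and 2 above the range of the 7 whole-cell libraries other than the pair that stands apart. In that of Nmd3 siRNA replicate 2, 20 were below and 6 above. Over 16872 genes, 47.7% were below and 30.5% above in the first library, and 58.1% and 24.5% in the second.

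Without both libraries that stand apart, 12 of 34 genes were lower after Gnl3 siRNA in whole-cell RNA (n = 2 against 3) and none was higher, against 0.812% of all 17490 genes called (0.297% lower). These were Aldh1l2, Stc2, Chac1, Nupr1, Gpt2, Pck2, Aldh18a1, Phgdh, Psat1, Mthfd2, Xpot and Asns. Chac1 had 32.4, 35.0 and 16.04 CPM after Gnl3 siRNA, 43.5, 19.5 and 43.7 CPM after Nmd3 siRNA, and 44.1, 49.7 and 46.3 CPM after scramble siRNA. Phgdh had 122, 138 and 47.7 CPM after Gnl3 siRNA, 183, 168 and 157 CPM after Nmd3 siRNA, and 159, 172 and 166 CPM after scramble siRNA. In both genes replicates 1 and 2 of Gnl3 siRNA were below all 3 scramble libraries, and replicate 3 was far below them. The log2 fold changes without both libraries were -0.47 (SE 0.083, adjusted p = 0.00214) for Chac1 and -0.35 (SE 0.067, adjusted p = 0.0063) for Phgdh.

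Psat1 had 399, 443 and 472 CPM after Gnl3 siRNA, 501, 312 and 527 CPM after Nmd3 siRNA, and 536, 545 and 515 CPM after scramble siRNA in whole-cell RNA. Asns had 235, 243 and 290.3 CPM after Gnl3 siRNA, 319, 349 and 309 CPM after Nmd3 siRNA, and 274, 298 and 275 CPM after scramble siRNA. For Psat1 every Gnl3 siRNA library was below scramble, while for Asns replicate 3 lay within the scramble range and replicates 1 and 2 below it. The log2 fold changes without both libraries were -0.33 (SE 0.059, adjusted p = 0.0019) for Psat1 and -0.24 (SE 0.058, adjusted p = 0.0387) for Asns. Gpt2 had 61.2, 70.2 and 40.6 CPM after Gnl3 siRNA, 90.7, 27.0 and 80.7 CPM after Nmd3 siRNA, and 83.9, 92.7 and 87.1 CPM after scramble siRNA. Pck2 had 55.0, 60.9 and 21.7 CPM after Gnl3 siRNA, 83.8, 63.5 and 73.9 CPM after Nmd3 siRNA, and 75.3, 78.2 and 76.2 CPM after scramble siRNA. These mitochondrial enzymes were lower in every Gnl3 siRNA library than in any scramble library, with -0.41 (SE 0.073, adjusted p = 0.00214) for Gpt2 and -0.40 (SE 0.072, adjusted p = 0.00257) for Pck2.

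Mthfd2 had 68.6, 66.5 and 60.9 CPM after Gnl3 siRNA, 78.8, 74.8 and 76.3 CPM after Nmd3 siRNA, and 80.2, 84.2 and 81.2 CPM after scramble siRNA in whole-cell RNA. Xpot had 256, 273 and 227 CPM after Gnl3 siRNA, 316, 158 and 291 CPM after Nmd3 siRNA, and 313, 315 and 316 CPM after scramble siRNA. Stc2 had 24.6, 24.9 and 29.5 CPM after Gnl3 siRNA, 29.6, 15.0 and 30.9 CPM after Nmd3 siRNA, and 34.8, 32.7 and 37.9 CPM after scramble siRNA. All 3 genes were lower in each Gnl3 siRNA library than in each scramble library. Without both libraries the log2 fold changes were -0.27 (SE 0.066, adjusted p = 0.0379) for Mthfd2, -0.25 (SE 0.056, adjusted p = 0.0223) for Xpot and -0.50 (SE 0.091, adjusted p = 0.00257) for Stc2.

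Nupr1 had 17.2, 23.0 and 34.4 CPM after Gnl3 siRNA, 32.0, 43.0 and 26.3 CPM after Nmd3 siRNA, and 26.7, 27.6 and 28.7 CPM after scramble siRNA in whole-cell RNA, so that replicates 1 and 2 of Gnl3 siRNA were below scramble and replicate 3 above it. Its fold change without both libraries was -0.45 (SE 0.11, adjusted p = 0.0457). Aldh1l2, the mitochondrial 10-formyltetrahydrofolate dehydrogenase, was at -0.86 (SE 0.2, adjusted p = 0.0335) and Aldh18a1 at -0.37 (SE 0.063, adjusted p = 0.00108). The libraries were made with a strand-keeping kit, but the strand setting of counting was not given in the sources used here. Aldh1l2 shares 1056 exon bases with a gene on the opposite strand, Jdp2 165, Psph 452, Cebpb 312, Bcat1 337 and Ndrg1 419. Reads in those bases may affect their counts. Over all libraries, the partners of Jdp2 and Bcat1 had only 83 and 378 counts. Those of Aldh1l2, Psph, Cebpb and Ndrg1 had 29911, 310001, 21703 and 2610.

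Among the regulators, the lowest value of each gene given here was in the pair that stands apart. Atf4 had 281, 276 and 196 CPM after Gnl3 siRNA, 316, 415 and 292 CPM after Nmd3 siRNA, and 287, 311 and 294 CPM after scramble siRNA in whole-cell RNA. Ddit3 had 27.1, 25.6 and 21.9 CPM after Gnl3 siRNA, 28.4, 72.8 and 29.4 CPM after Nmd3 siRNA, and 32.7, 29.5 and 30.2 CPM after scramble siRNA. Nmd3 siRNA replicate 2 was the highest library for both, and Gnl3 siRNA replicate 3 the lowest. Trib3 had 47.3, 50.6 and 13.0 CPM after Gnl3 siRNA, 62.1, 50.5 and 52.1 CPM after Nmd3 siRNA, and 58.5, 57.8 and 58.5 CPM after scramble siRNA. Atf3 had 6.78, 5.20 and 3.95 CPM after Gnl3 siRNA, 5.93, 2.81 and 5.82 CPM after Nmd3 siRNA, and 5.90, 5.89 and 6.28 CPM after scramble siRNA. Trib3 was lowest in Gnl3 siRNA replicate 3, and Atf3 in Nmd3 siRNA replicate 2. Ddit3 shares 68 exon bases with the methionyl-tRNA synthetase gene on the opposite strand.

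Ddit4 had 137, 148 and 32.8 CPM after Gnl3 siRNA, 118, 66.0 and 123 CPM after Nmd3 siRNA, and 122, 121 and 136 CPM after scramble siRNA in whole-cell RNA. Without the pair that stands apart, its log2 fold change after Gnl3 siRNA was 0.17 (SE 0.063, adjusted p = 0.325), which was not called. Jdp2 had 5.33, 4.55 and 3.75 CPM after Gnl3 siRNA, 8.24, 1.19 and 5.87 CPM after Nmd3 siRNA, and 6.09, 5.999 and 7.64 CPM after scramble siRNA, and Pycr1 had 25.4, 28.0 and 21.2 CPM after Gnl3 siRNA, 33.0, 9.96 and 31.8 CPM after Nmd3 siRNA, and 33.5, 29.7 and 33.3 CPM after scramble siRNA. Both were lower in all 3 Gnl3 siRNA libraries than in scramble, but -0.42 (SE 0.19, adjusted p = 0.5) for Jdp2 and -0.26 (SE 0.09, adjusted p = 0.262) for Pycr1 were not called. Cth had 97.6, 103 and 58.7 CPM after Gnl3 siRNA, 109.7, 89.2 and 110.4 CPM after Nmd3 siRNA, and 94.4, 96.4 and 94.9 CPM after scramble siRNA, and after Nmd3 siRNA without the pair it was at 0.20 (SE 0.061, adjusted p = 0.227).

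Of the 11 genes that fell after Gnl3 siRNA on ER ribosomes, 9 (81.8%) also fell in whole-cell RNA without the pair that stands apart, and these were 75% of the 12 lower there. Over all genes, 31 of the 206 lower on ER ribosomes (15%) were also lower in whole-cell RNA, which was 59.6% of the 52 lower there. The difference between these shares was not tested. Jdp2 and Pycr1 were called on ER ribosomes alone, and Aldh18a1, Aldh1l2 and Asns in whole-cell RNA alone. The fractions are separate libraries of the same lysates. Whether the Gnl3 siRNA effect differed between them was tested as an interaction, which called none of the 35 genes with all libraries or without the pair, and 0% of all genes. At an unadjusted p under 0.05 edgeR had 0 of the 35 in either setting, and DESeq2 called 0. The same holds for the Nmd3 siRNA effect.

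After Nmd3 siRNA in whole-cell RNA, none of the 34 genes was called without the pair either, against 0.166% of all genes, and 4 had an unadjusted p under 0.05. Their log2 fold changes ran from -0.22 to 0.20. Between the knockdowns, Asns, Phgdh, Gpt2 and Pck2 were higher after Nmd3 than after Gnl3 siRNA in whole-cell RNA, 4 of 34 against 0.212% of all genes. The log2 differences were 0.43 (SE 0.078, adjusted p = 0.00632) for Pck2, 0.38 (SE 0.063, adjusted p = 0.00188) for Asns, 0.38 (SE 0.073, adjusted p = 0.0166) for Phgdh and 0.37 (SE 0.08, adjusted p = 0.0359) for Gpt2. All 4 were also higher in this direction on ER ribosomes.

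**Figure D4:**
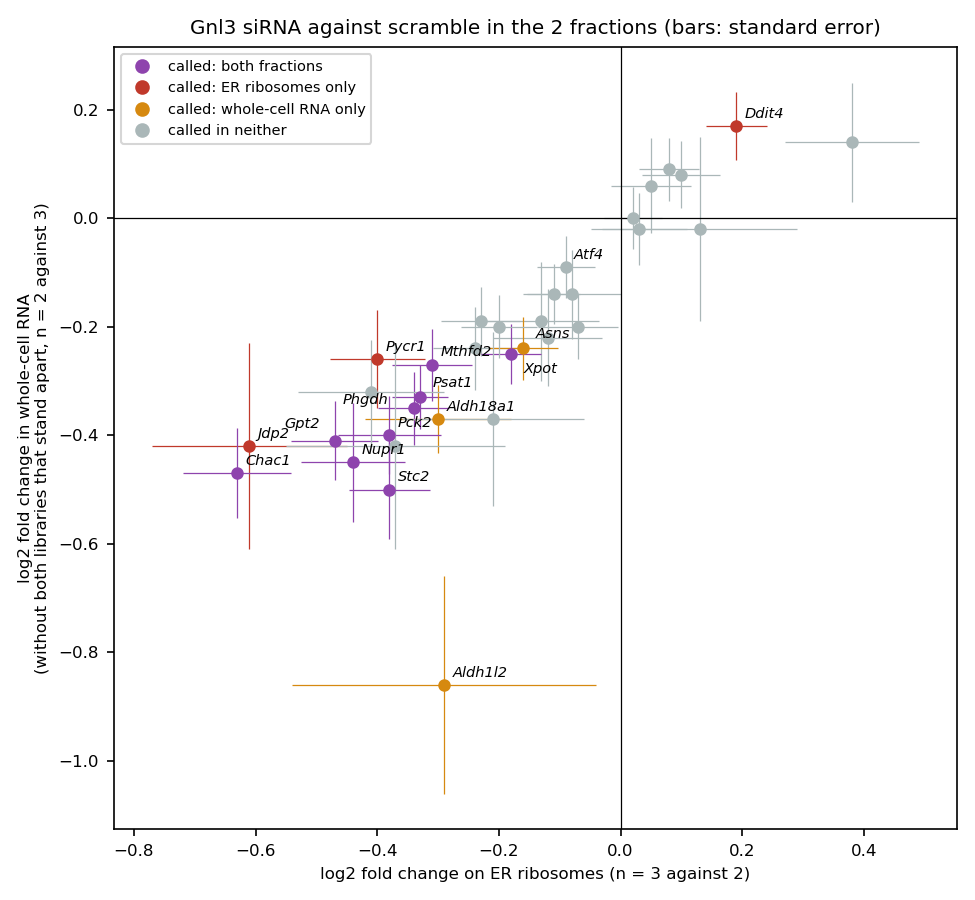
Log2 fold change of the 34 genes after Gnl3 siRNA against scramble siRNA, on ER ribosomes (x axis) and in whole-cell RNA without the pair of libraries that stands apart (y axis), with standard errors and coloured by the fraction in which the gene was called. The 9 genes that were lower in both lie at the lower left, where Chac1 is at -0.63 and -0.47, and Ddit4 lies in the upper right.

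Of the pathway genes outside the 35, 3 of 13 transporters fell in whole-cell RNA without the pair, namely Slc6a9 by 0.52, Slc7a1 by 0.42 and Slc1a4 by 0.36 on the log2 scale. Of 20 tRNA synthetases, Aars1 fell by 0.25 and Nars1 by 0.24. None of the 18 eIF2 alpha kinases and related regulators and none of the 18 unfolded protein response genes was called there by edgeR, with 1 and 0 at an unadjusted p under 0.05, and DESeq2 was not run on these 7 libraries. Fgf15 fell by 0.76 and Mthfd1 rose by 0.25. Of 18 p53 targets tested, 8 rose. No pluripotency marker of 10 was called there by edgeR, and 4 had an unadjusted p under 0.05.

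mRNAs of secreted and membrane proteins are translated at the ER, so the genes were also grouped by where their proteins go. In the fit of all 17 libraries, few genes were called between ER ribosomes and whole-cell RNA, 4 of 35 after Gnl3 siRNA, 3 after Nmd3 siRNA and 3 after scramble siRNA, against 24.5%, 15.2% and 12.7% of all genes. Of all genes, 10.3% were higher and 14.2% lower on ER ribosomes after Gnl3 siRNA, 7.71% and 7.5% after Nmd3 siRNA, and 5.14% and 7.56% after scramble siRNA. Stc2 was higher on ER ribosomes in each, with log2 fold changes of 0.73 (SE 0.15, adjusted p = 0.00284), 0.95 (SE 0.16, adjusted p = 0.00082) and 0.73 (SE 0.17, adjusted p = 0.00979) in that order. Xpot was lower in each, at -0.52, -0.46 and -0.62. The other calls were Asns, lower after Gnl3 and Nmd3 siRNA, Ppp1r15a, higher after Gnl3 siRNA, and Aldh1l2, lower after scramble siRNA. After Nmd3 siRNA the median over all genes was -0.108 in this fit. Leaving out Nmd3 siRNA whole-cell replicate 2 gave 9 calls after Nmd3 siRNA, and leaving out any 1 of its ER libraries gave 1. Leaving out Gnl3 siRNA whole-cell replicate 1 gave 7 calls after Gnl3 siRNA, and leaving out its ER replicate 1 or 2 gave 2. After scramble siRNA there were 0 calls without either ER library and 1 without whole-cell replicate 2.

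Without the pair that stands apart, 19 of 35 genes were called after Gnl3 siRNA (8 higher on ER ribosomes), 18 after Nmd3 siRNA (7 higher) and 19 after scramble siRNA (7 higher). Of all genes, 48.1%, 50.1% and 50.3% were called, so the share among the 35 was near that of all genes. In the same order, 23.3%, 24.5% and 25.1% of all genes were higher on ER ribosomes and 24.9%, 25.6% and 25.3% lower. Among the secreted and membrane genes Stc2 was higher after each siRNA, at 0.86 (SE 0.08), 0.78 (SE 0.078) and 0.74 (SE 0.074). Gdf15 was higher after Gnl3 siRNA, at 0.52 (SE 0.16), and Nmd3 siRNA, at 0.54 (SE 0.16), while 0.35 (SE 0.15) after scramble siRNA was not called. Vegfa and Vldlr were not called after any siRNA.

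Genes for cytosolic, nuclear and mitochondrial proteins lay on both sides of 0. With all libraries, 0 of the 8 mitochondrial proteins were called after Gnl3 siRNA, 0 after Nmd3 siRNA and 1 after scramble siRNA. Without the pair, 5 were lower and Pycr1 was higher on ER ribosomes after each siRNA. The 5 were Pck2, Gpt2, Mthfd1l, Aldh18a1 and Aldh1l2, and Pycr1 was at 0.23 (SE 0.086) after Gnl3 siRNA, 0.24 (SE 0.084) after Nmd3 siRNA and 0.37 (SE 0.082) after scramble siRNA. Of the 22 cytosolic or nuclear proteins, Atf4 was higher after each siRNA, at 0.21, 0.21 and 0.21. Nupr1, Ddit4 and Ppp1r15a were higher after each siRNA as well, and Cebpb after Gnl3 and scramble siRNA. Xpot, Asns, Psph, Cth, Bcat1 and Psat1 were lower after each, led by Xpot at -0.56, -0.61 and -0.62.

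Shorter coding sequences went with higher ratios, to a degree that varied with the libraries. Across the 35 genes after scramble siRNA, the log2 ratio and the log of coding length had a Pearson r of -0.52 and a Spearman rho of -0.49, against -0.49 and -0.53 across 14276 genes, without the pair that stands apart. After Gnl3 siRNA r was -0.37 over the 35 genes without the pair and -0.34 with all libraries, against -0.45 and -0.41 over all genes. After Nmd3 siRNA r was -0.44 without the pair and -0.13 with all libraries, against -0.45 and -0.18 over all genes. With all libraries, r over the 35 genes after scramble siRNA was also -0.52. These points share libraries and are not replicates. Other lists give the scale after scramble siRNA without the pair, where 25.1% of all genes were higher on ER ribosomes and 25.3% lower. Of 18 unfolded protein response genes, most of them ER-resident proteins, 16 were higher. Of 20 cytosolic tRNA synthetases 16 were lower and none was higher. In the same fit, 9 of the 12 amino acid genes were lower and 1 was higher.

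**Figure D5:**
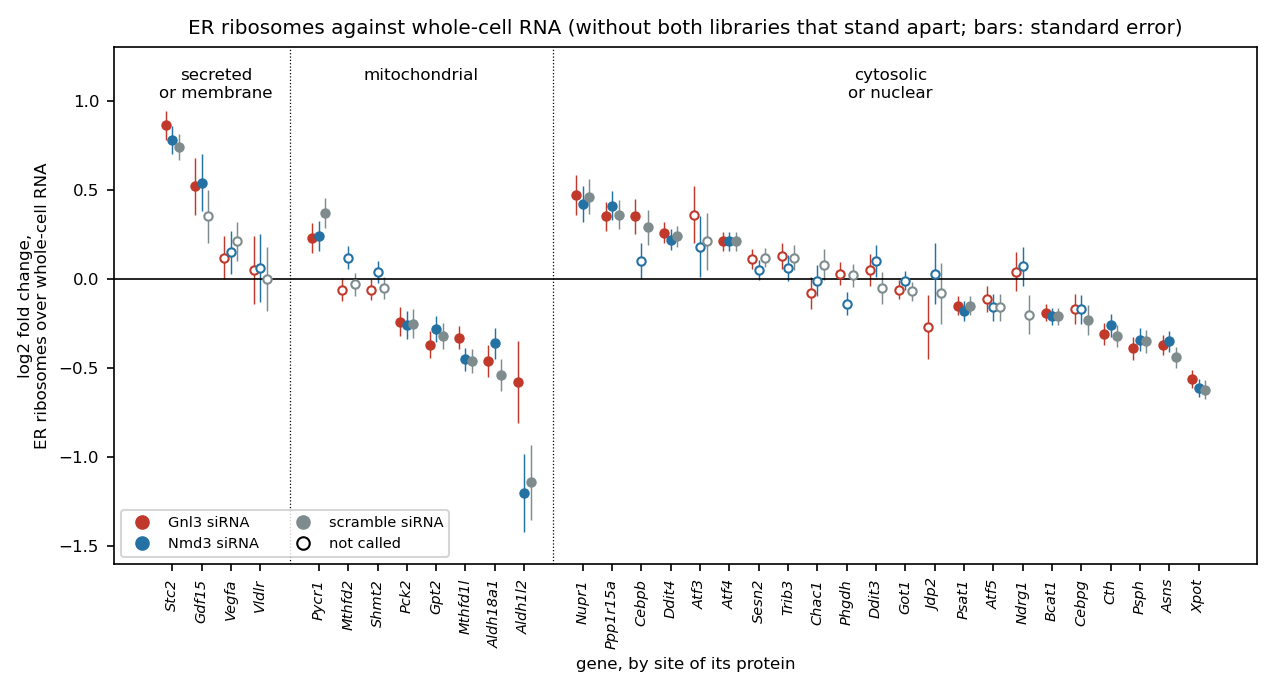
Log2 fold change of ER ribosome-bound over whole-cell RNA for 34 genes, without the pair of libraries that stands apart, after Gnl3 siRNA (red), Nmd3 siRNA (blue) and scramble siRNA (grey), with standard errors and grouped by the site of the protein. Points are filled where the adjusted p was under 0.05, Fgf21 is left out for its low counts, Stc2 is highest in each siRNA group, and Xpot and Aldh1l2 are among the lowest.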

How the data were processed

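Poly(A) RNA of ER ribosomes and of whole cells was sequenced in 17 libraries. The deposited files hold raw counts per gene, made by the authors with STAR 2.7.9a and HTSeq 0.11.2 on GRCm39, per the submitters' processing notes. The strand setting was not given in the sources used here. HTSeq lines that name no gene were left out of totals and tests (46.61% to 48.35% of all reads in the files had no feature, and 5.11% to 10.18% were not unique). Samples were grouped by their labels.

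Counts were tested in R 4.3.3 with edgeR 4.0.16 (filterByExpr, TMM, robust quasi-likelihood fit), with Benjamini-Hochberg adjustment over all genes tested and a threshold of 0.05. The 8 ER libraries (17632 genes), the 9 whole-cell libraries (17310 genes) and all 17 (18525 genes) were fitted separately, the last for ratios of fractions and their interactions. Each standard error is the absolute log2 fold change over the square root of F. The test was checked on simulated counts. CPM were computed on gene counts. IDs were named through the GENCODE M21 annotation and RefSeq tables, which named 52083 of 55416.

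The 35 genes and all other lists were chosen with earlier results of these data known. Values in every library are given for Atf4, Ddit3, Atf3, Trib3, Chac1, Asns and each gene called against scramble on ER ribosomes, and up to 4 called genes are named per other list. Whole-cell values in every library follow the same rule. Alternatives were library totals, DESeq2 1.42.0, no filter, a replicate block, each library left out, other sets of libraries, and no libraries that stand apart. A fit of both fractions without that pair was added after the data were seen. Replicate numbers pair the 2 fractions of a lysate by design. Residual correlations between same-numbered libraries were -0.11 to 0.02 within a lysate, -0.07 to 0.03 within the ER fraction and -0.11 to 0.24 within the whole-cell fraction (-0.04 to 0.05 without the pair that stands apart).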

Additional observations from a re-analysis of the deposited data

How the results depend on the processing

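Counts are of the listed genes called, and the number of all genes called moved with the setting as well. Where no share over all genes is given, a count cannot be read as particular to these genes. On ER ribosomes the 12 calls after Gnl3 siRNA became 12 with library totals, 18 with no filter and 11 with DESeq2, and the 2 calls after Nmd3 siRNA became 1 (Asns) with the replicate block. The replicate block gave 8 calls after Gnl3 siRNA and 10 between the knockdowns. Fitting all 17 libraries together, with the pair that stands apart in the same estimate of spread, gave 0 in each of the 3 ER comparisons. Leaving out 1 library gave 3 to 10 for Gnl3 siRNA, 0 to 2 for Nmd3 siRNA and 10 to 18 between the knockdowns. Chac1, Psat1 and Gpt2 remained called after Gnl3 siRNA in every alternative but the fit of all 17, while Pck2 remained in 5, Ddit4 in 3, and Jdp2 and Xpot in 2 of 11. In whole-cell RNA, leaving out 1 library gave 0 to 0 in each comparison. Without both libraries that stand apart the counts were 12 for Gnl3 siRNA and 4 between the knockdowns, with the replicate block as well 11 and 6, and in the added fit of both fractions 12 and 6. Between ER ribosomes and whole-cell RNA, the counts after Gnl3, Nmd3 and scramble siRNA (4, 3 and 3) became 2, 1 and 1 with no filter, 7, 6 and 5 with DESeq2, 1, 1 and 0 with the replicate block, 19, 18 and 19 without the pair, and 19, 21 and 18 without the pair and with the replicate block. Library totals gave 1 after scramble siRNA, and a fit of only the siRNA compared gave 0 after Nmd3 siRNA and 23 after scramble siRNA. Leaving out 1 library gave 2 to 7, 1 to 9 and 0 to 2. Over all genes DESeq2 called 5239, 3440 and 3128 of 32775 after Gnl3, Nmd3 and scramble siRNA, where edgeR called 4540, 2819 and 2353 of 18525. On ER ribosomes after Gnl3 siRNA, DESeq2 called 379 of all 29579 genes and edgeR 472 of 17632. Without the pair, some ratios changed sign: Atf4 after Nmd3 siRNA was 0.21 (0.24 with the replicate block), Gpt2 -0.28 (-0.26), Nupr1 0.42 (0.45), and Pck2 after Gnl3 siRNA -0.24 (-0.31). The cause of these changes was not tested. Genes of few counts, such as Fgf21, Vldlr and Aldh1l2, are limited by depth, and the scramble ER group by its 2 libraries.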
